A study of Mus musculus with 31 samples.

Results

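The RNA of 10 genes known from regulatory T cells or from T cells in general was followed in whole lung. Regulatory T cells are T cells too, so the general genes do not stand for other T cells alone. Regulatory T cell (Treg) genes were Foxp3, Il2ra, Ctla4, Ikzf2, Icos and Tnfrsf18, and general T cell genes were Cd3e, Cd3g, Cd4 and Cd8a. They were taken by name from 19938 genes on the arrays, and each of the 10 was read by 1 probe set. Of the 10, 9 passed the filter on low values and were tested among 14705 genes. Ctla4 did not pass, lying above the 40th percentile of an array on 1 of 31 arrays, and its values are given without a test.

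The 31 arrays hold RNA of whole lung from male mice labelled 6 wk of age, of the inbred strains C57 (C57BL/6) and AKR, the latter known for T cell lymphomas later in life. Room air alone was given to 3 C57 and 3 AKR mice titled 6 wk and to 2 AKR mice titled 3 wk. The other mice breathed room air or cigarette smoke, for a titled 3 wk, and then received normal saline, or lipopolysaccharide (LPS, bacterial endotoxin) in saline. In each strain these make 4 groups: air then saline, smoke then saline, air then LPS, and smoke then LPS. Each of those groups has 3 arrays, except AKR smoke then LPS with 2. The series description puts instilled mice at 6 weeks of exposure and names the trachea as the route, so the exposure time of the instilled mice is uncertain. The titles call the arrays biological replicates, and their small number limits the precision of every value.

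A T cell carries a receptor for antigen whose signalling chains include CD3 epsilon (Cd3e) and CD3 gamma (Cd3g), and the co-receptors CD4 (Cd4) and CD8 alpha (Cd8a) mark helper and cytotoxic T cells. Tregs restrain other immune cells and depend on the transcription factor FOXP3, for which Foxp3 is the lineage-defining gene. They carry the high-affinity receptor chain for interleukin 2 (Il2ra, CD25), the inhibitory receptor CTLA-4 (Ctla4), the transcription factor Helios (Ikzf2), the costimulatory receptor ICOS (Icos) and the receptor GITR (Tnfrsf18). Most of these Treg genes are not private to Tregs: activated conventional T cells switch on Il2ra, Ctla4, Icos and Tnfrsf18, and other activated leukocytes can carry Il2ra. In injured lung, Tregs are known for their part in the resolution of inflammation.

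The starts of 3 members are shown because the results turn on them: Il2ra was the member with the largest difference with LPS, and Cd3g was the gene most like Cd3e across the arrays. RefSeq (GRCm38.p6) supplied a start for 7 of the 10 members. The 250 bases before each start are given on the gene's own strand. Capitals mark letters that match 1 of 4 motifs searched on both strands. The letters for the kappaB motif were GGGANNNNCC, and those for the STAT motif were TTCNNNGAA. For factors of the ETS family they were GGAAGT. For factors of the GATA family the search was for AGATAA, and a base could belong to more than 1 motif. The search ran over 300 bases, of which 50 lie after the start and are not shown.
Il2ra, chr2:11642542-11642791, + strand: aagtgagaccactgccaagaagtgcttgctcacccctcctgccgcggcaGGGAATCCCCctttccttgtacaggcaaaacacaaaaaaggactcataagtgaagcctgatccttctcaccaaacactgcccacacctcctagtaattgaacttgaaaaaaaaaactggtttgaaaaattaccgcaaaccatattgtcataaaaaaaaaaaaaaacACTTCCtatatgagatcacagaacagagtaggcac
Cd3e, chr9:45009612-45009861, - strand: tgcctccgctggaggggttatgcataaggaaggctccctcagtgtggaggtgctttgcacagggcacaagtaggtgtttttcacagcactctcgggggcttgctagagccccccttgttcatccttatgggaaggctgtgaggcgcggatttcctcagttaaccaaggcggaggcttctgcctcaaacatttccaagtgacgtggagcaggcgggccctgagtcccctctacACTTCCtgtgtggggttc
Cd3g, chr9:44980432-44980681, - strand: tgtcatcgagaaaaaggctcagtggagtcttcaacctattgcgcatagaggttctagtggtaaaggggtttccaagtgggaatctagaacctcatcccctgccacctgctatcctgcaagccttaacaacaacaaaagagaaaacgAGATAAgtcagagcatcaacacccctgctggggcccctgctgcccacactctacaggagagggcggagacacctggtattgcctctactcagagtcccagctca
The capitals in Il2ra are a kappaB match, 201 to 192 bases before the start, and an ETS match on the other strand, 35 to 30 bases before it. Cd3e held an ETS match on the other strand, 18 to 13 bases before its start, and Cd3g a GATA match 104 to 99 bases before its start. Of 32851 promoters of this length, 20.7% held the kappaB letters, 23.8% the ETS letters, 11.2% the GATA letters and 8.3% the STAT letters, so each match is a description of these letters alone. Cd3g and Cd3e are near neighbours with Cd3d alone between them among protein-coding genes, and Ctla4 lies between Cd28 and Icos.

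The tissue label was borne out by lung markers: the surfactant genes Sftpc and Sftpb, Ager, Scgb1a1, Cdh5 and Pecam1 lay at or above the 94.9th percentile on every array. Of 8 thymocyte markers, Rag1, Rag2, Dntt and Arpp21 lay above the 40th percentile on 0 of 31 arrays. The other 4 passed the filter: Tcf12 and Cd1d1 lay above it on all 31 arrays, Ptcra on 23 and Themis on 19. In whole lung, fewer cells of a type and less RNA per cell cannot be told apart. The distributions fall into 2 sets of arrays that may have been normalized separately: 18 arrays with all C57 groups and AKR room air 6 wk, and 13 arrays with all other AKR groups. Every comparison below lies within a set, or is a difference of such differences. The strain interactions set AKR arrays of the smaller set against C57 arrays of the larger. Strain and set cannot be told apart in them, and a difference of scale between the sets would not cancel. The arrays labelled C57 smoke saline 3 and C57 smoke LPS 3 go against their labels: the acute-phase gene Saa3 read 12.47 and 6.06 on them, against 6.10 and 6.36 on the other C57 smoke saline arrays and 12.64 and 12.85 on the other C57 smoke LPS arrays. They were kept under their labels. In C57, LPS against saline after smoke and smoke against air with saline are given with and without both. The other C57 smoke comparisons are given with them alone. AKR air saline 3 also stood apart within its group, with Saa3 at 8.95 against 6.22 and 6.38, where the AKR smoke saline arrays read 8.09, 8.65 and 8.26 and the AKR LPS arrays from 12.24 to 12.75. Without it, 5 members in place of 6 rose with LPS after air in AKR, and 0 in place of 1 fell with saline against room air alone.

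Levels of the members were moderate to low. All values are log2 intensities, on which a difference of 1 is a ratio of 2. Cd3e spanned 7.44 to 9.19 over the 31 arrays, between percentiles 58.8 and 83 of an array. Foxp3 spanned 6.43 to 7.28, between percentiles 39.8 and 56.1, the narrowest range of the 10 genes. Il2ra spanned 5.76 to 8.94, the widest range. Ctla4 was the dimmest, at 5.06 to 6.57. Levels of different genes are not compared, since probe sets differ in brightness.

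**Figure D1:**
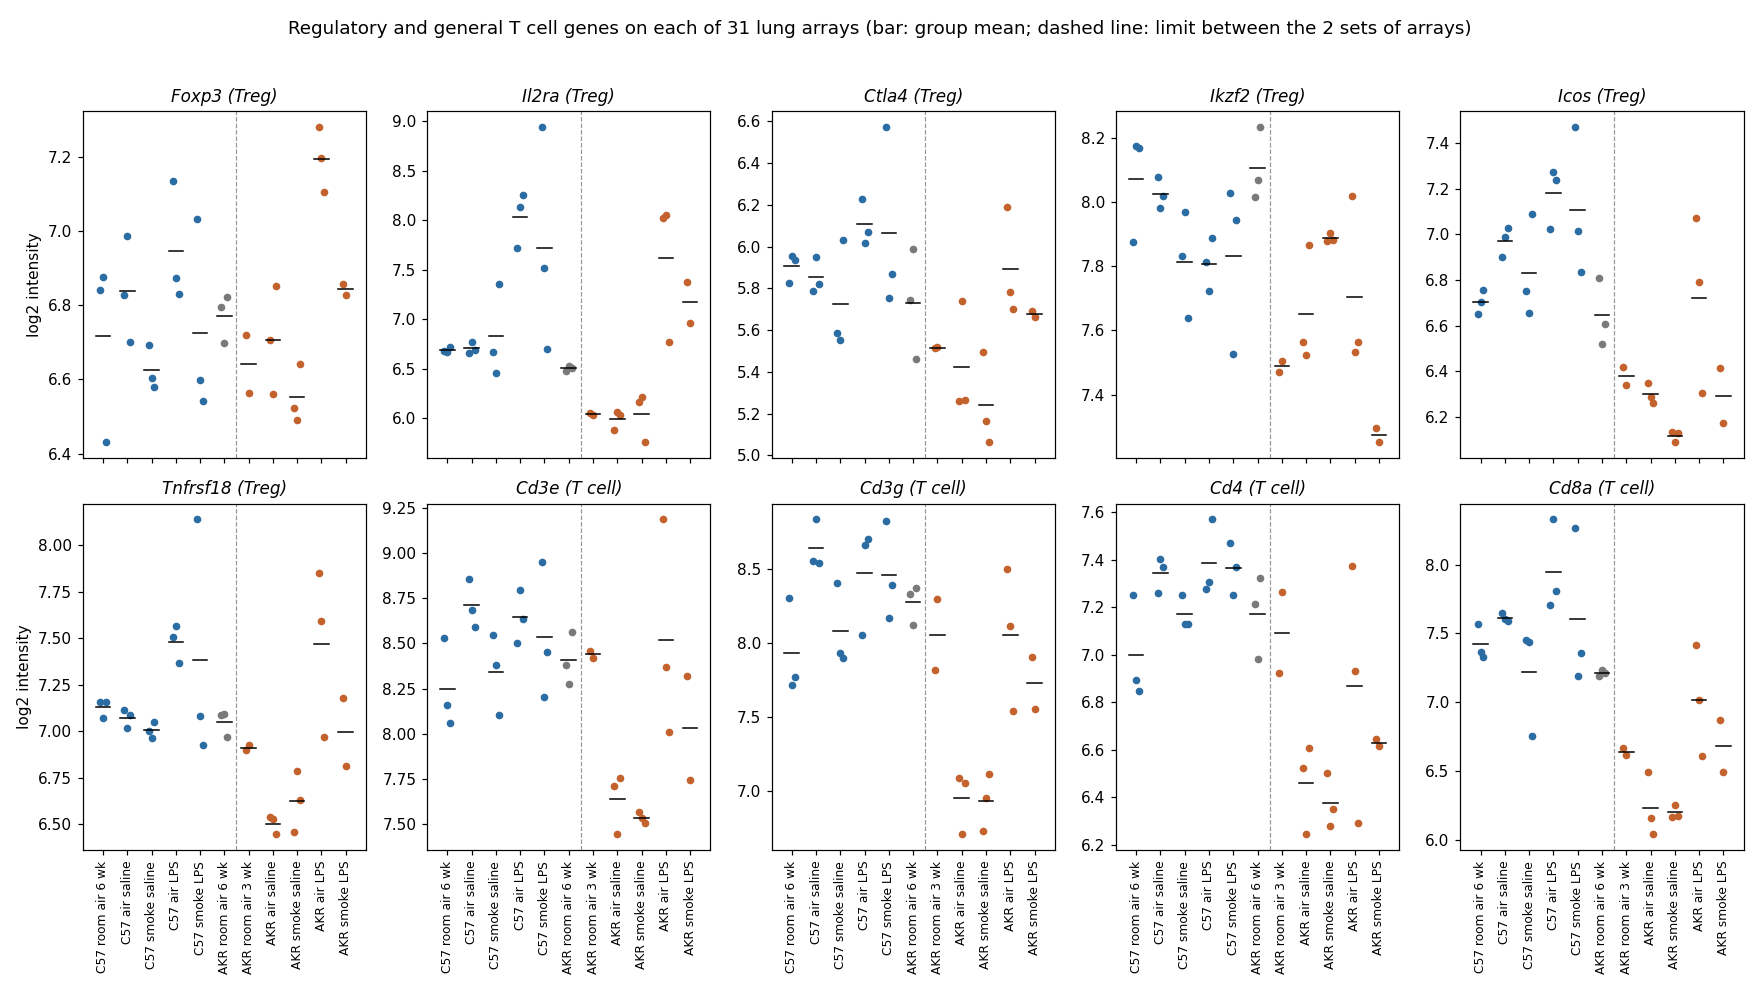
Log2 intensity of the 10 genes (vertical axis, 1 panel a gene, with its own scale) on each of 31 arrays by group (horizontal axis); bars are group means and the dashed line separates the 2 sets of arrays (blue, C57; orange, AKR; grey, AKR room air 6 wk, in the same set as C57). Il2ra stands high with LPS in both strains, whereas Cd3e, Cd3g, Cd4 and Cd8a are low on the AKR saline arrays.

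LPS against saline after air measures the response of the T cell genes to endotoxin. In C57 lungs Il2ra alone rose among the 9 members tested (11.5% of all genes tested rose and 15.7% passed). In AKR lungs 6 members rose, 3 Treg genes and 3 general T cell genes (9.45% of all genes tested rose and 16.9% passed). No member fell in either strain.

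Il2ra read 6.66, 6.77 and 6.69 on the C57 air saline arrays and 7.72, 8.13 and 8.25 on the C57 air LPS arrays. The groups did not overlap, and the difference was 1.33 ± 0.36 (SE; limma adjusted p = 0.0163; n = 3 and 3). In AKR it read 5.88, 6.07 and 6.03 with saline and 8.02, 8.06 and 6.77 with LPS, a difference of 1.63 ± 0.36 (limma adjusted p = 0.00319; n = 3 and 3). AKR air LPS 3 was the lowest of its group yet stood above every saline array. The C57 call was lost without C57 air saline 1 (difference 1.31) or without C57 air LPS 3 (1.22), with limma adjusted p from 3.9e-07 to 0.0625 over all alternatives.

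Foxp3 read 6.83, 6.99 and 6.70 with saline and 7.14, 6.87 and 6.83 with LPS in C57. These overlap, and the difference of 0.11 ± 0.12 did not pass (limma adjusted p = 0.567). In AKR Foxp3 read 6.71, 6.56 and 6.85 with saline and 7.28, 7.20 and 7.10 with LPS. All LPS arrays lay above all saline arrays, and Foxp3 rose by 0.49 ± 0.12 (limma adjusted p = 0.00856). Whether the strains differ in this was tested as an interaction: 0.38 ± 0.17 more in AKR, which did not pass (limma adjusted p = 0.410).

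Tnfrsf18 read 6.54, 6.53 and 6.44 with saline and 7.85, 7.59 and 6.97 with LPS in AKR, with no overlap and a rise of 0.97 ± 0.21 (limma adjusted p = 0.00248). In C57 it read 7.11, 7.02 and 7.09 with saline and 7.51, 7.57 and 7.37 with LPS, again with no overlap, but the difference of 0.41 ± 0.21 did not pass (limma adjusted p = 0.181). Icos differed by 0.42 ± 0.15 in AKR (limma adjusted p = 0.0602) and by 0.21 ± 0.15 in C57 (limma adjusted p = 0.360). Icos rose in AKR with both doubted C57 arrays left out of the spread, and without AKR air LPS 3 (difference 0.63). Ctla4 read 5.26, 5.74 and 5.27 with saline and 6.19, 5.78 and 5.70 with LPS in AKR. Ikzf2 stood apart from the other Treg genes: it differed by 0.06 ± 0.13 in AKR and by -0.22 ± 0.13 in C57 (limma adjusted p = 0.824 and 0.253), where all 3 LPS arrays lay below all saline arrays.

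The receptor chains rose in AKR. Cd3e read 7.71, 7.44 and 7.75 with saline and 9.19, 8.37 and 8.01 with LPS in AKR, a rise of 0.89 ± 0.22 (limma adjusted p = 0.00689). Cd3g read 7.09, 6.71 and 7.06 with saline and 8.50, 8.12 and 7.54 with LPS, a rise of 1.10 ± 0.23 (limma adjusted p = 0.00190). Neither gene's groups overlapped. Cd8a rose by 0.78 ± 0.23 (limma adjusted p = 0.0203), also with no overlap. Cd4 read 6.52, 6.24 and 6.61 with saline and 7.38, 6.93 and 6.29 with LPS; these overlap, and 0.41 ± 0.18 did not pass (limma adjusted p = 0.112). Cd3e lost its call without AKR air LPS 1 (difference 0.55), the array on which 9 of the 10 members were highest within that group. Cd8a lost it without AKR air saline 2 (0.75) or 3 (0.69) and without AKR air LPS 1 (0.58) or 2 (0.78).

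In C57 the same chains did not pass. Cd3e read 8.86, 8.68 and 8.59 with saline and 8.50, 8.80 and 8.63 with LPS, and Cd3g read 8.55, 8.84 and 8.54 with saline and 8.05, 8.66 and 8.70 with LPS. Both genes overlapped between the groups, at -0.07 ± 0.22 and -0.17 ± 0.23 (limma adjusted p = 0.852 and 0.634). Cd4 was at 0.04 ± 0.18 and Cd8a at 0.33 ± 0.23 (limma adjusted p = 0.890 and 0.321). The median over the 6 Treg genes was 0.23 in C57 and 0.48 in AKR, and over the 4 general T cell genes -0.01 and 0.83, where the median of all genes tested was -0.01 and -0.04. The strain by LPS interaction called 0 members (1.14% of all genes; 3 members had an unadjusted p under 0.05), with Cd3g nearest at 1.27 ± 0.32 (limma adjusted p = 0.0538). Cd3g passed it without both doubted arrays, without AKR air LPS 3 (1.53), after quantile normalization and with array weights.

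**Figure D2:**
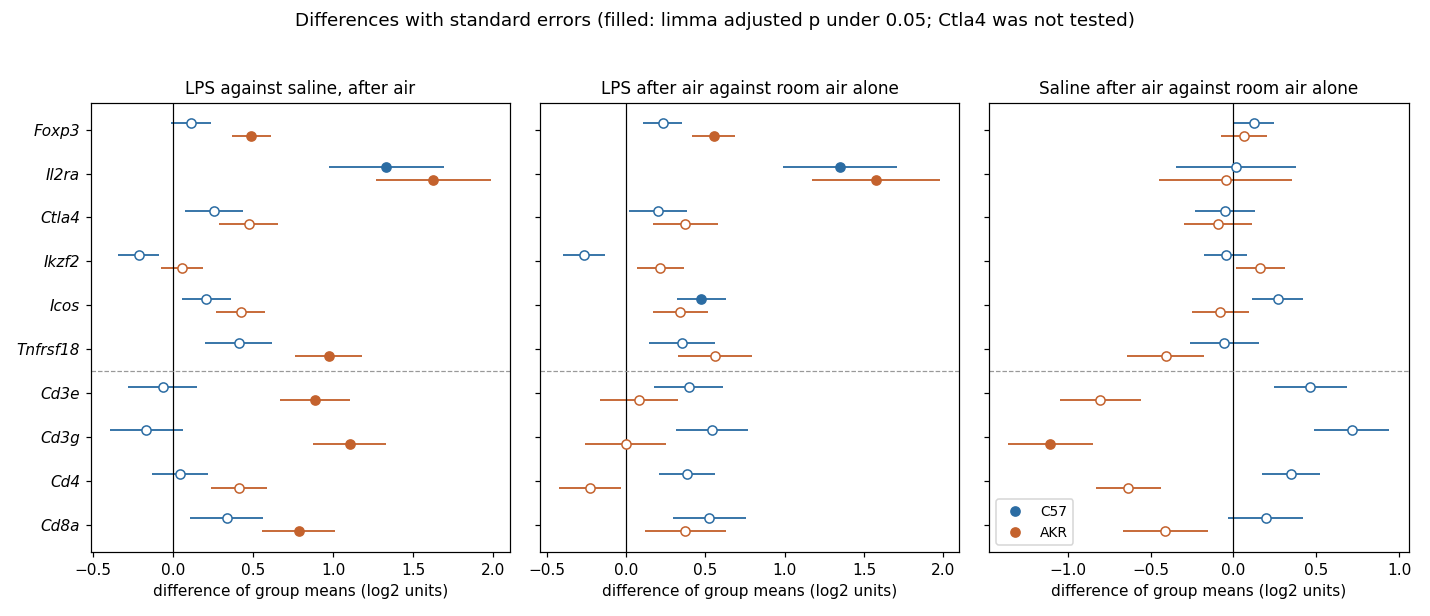
Differences of group means in log2 units (horizontal axis) for the 10 genes (vertical axis), with standard errors, in C57 (blue) and AKR (orange); filled points passed at a limma adjusted p under 0.05. Il2ra lies right of 0 in both LPS panels and near 0 for saline, while the general T cell genes shift left in AKR and right in C57 for saline against room air alone.

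Room air alone is the other reference that the design offers, and against it the general T cell genes changed their place. In C57, LPS after air raised 2 members over room air alone (15.1% of all genes rose and 22.9% passed): Il2ra by 1.35 ± 0.36 (limma adjusted p = 0.0115) and Icos by 0.47 ± 0.15 (limma adjusted p = 0.0298). Il2ra read 6.68, 6.67 and 6.72 in C57 room air alone, below all LPS arrays. Icos read 6.65, 6.71 and 6.76 there and 7.03, 7.27 and 7.24 with LPS, with no overlap. Its call was lost without any 1 of C57 room air 1, 2 or 3, or C57 air LPS 2 or 3, with differences from 0.43 to 0.50.

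In AKR, LPS after air raised Foxp3 and Il2ra over room air alone (5.54% of all genes rose and 15.8% passed), and no general T cell gene passed. Foxp3 read 6.72 and 6.56 in AKR room air 3 wk, below all 3 LPS arrays, and rose by 0.55 ± 0.14 (limma adjusted p = 0.0117; n = 3 and 2). Il2ra read 6.05 and 6.03 and rose by 1.58 ± 0.40 (limma adjusted p = 0.0130). Cd3e read 8.46 and 8.42, within the range of the LPS arrays, and differed by 0.08 ± 0.24 (limma adjusted p = 0.876). Cd3g read 7.82 and 8.29, also within that range, with a limma adjusted p of 0.997. Both calls fell with AKR room air 3 wk 1 or 2, or AKR air LPS 1, left out: Foxp3 was then at 0.63, 0.47 and 0.51, and Il2ra at 1.59, 1.57 and 1.37.

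Saline after air was itself set against room air alone. Cd3g was at 7.09, 6.71 and 7.06 on the AKR air saline arrays against 7.82 and 8.29 in AKR room air 3 wk. The groups did not overlap, and Cd3g fell by 1.10 ± 0.26 (limma adjusted p = 0.0422; n = 3 and 2), the 1 member to do so (0.558% of all genes fell and 0.687% passed). Cd3e, at -0.80 ± 0.24, Cd4, at -0.64 ± 0.20, and Cd8a, at -0.41 ± 0.26, did not pass (limma adjusted p = 0.110, 0.112 and 0.397), although every saline array lay below every room air array for each of them. Of the Treg genes Tnfrsf18 had that order too (-0.41 ± 0.23, limma adjusted p = 0.356). Foxp3 was at 0.06 ± 0.14, Il2ra at -0.05 ± 0.40 and Icos at -0.08 ± 0.17, all overlapping (limma adjusted p = 0.853, 0.967 and 0.855). Cd3g lost its call when any 1 of the 5 arrays was left out, with differences of -1.34 and -0.87 without AKR room air 3 wk 1 and 2, and -1.17, -0.98 and -1.16 without AKR air saline 1, 2 and 3.

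In C57 the saline arrays lay above room air alone for these genes. Cd3g read 8.55, 8.84 and 8.54 with saline against 8.30, 7.72 and 7.77, a difference of 0.71 ± 0.23 that did not pass (limma adjusted p = 0.494). Cd3e, Cd4, Cd8a and Icos had every saline array above every room air array as well, at 0.46, 0.35, 0.19 and 0.27. Of the 9 members 0 passed (0.0136% of all genes; limma, 2 members at an unadjusted p under 0.05), and Cd3g passed with array weights. In C57 the saline arrays also differ from room air alone in titled weeks (3 against 6).

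The opposite directions were tested as the strain by saline interaction. Cd3g differed by -1.82 ± 0.34 between AKR and C57 (limma adjusted p = 0.0113), the 1 member past the threshold (1.17% of all genes passed lower and 1.48% in all). Cd3e followed at -1.27 ± 0.33 and Cd4 at -0.98 ± 0.26 (limma adjusted p = 0.0508 and 0.0572), while Foxp3 was at -0.06, Il2ra at -0.06 and Ikzf2 at 0.21. Cd3g lost the call without AKR room air 3 wk 2 (-1.58), and kept it in 20 of 21 alternatives. Cd3e passed without both doubted arrays, as did Cd4, and both passed without C57 room air 1 (-1.41 and -1.11). With room air alone as the reference for LPS, the interaction of strain and LPS called 0 members (0.741% of all genes; limma, 2 at an unadjusted p under 0.05): Cd3g was at -0.55 ± 0.34 and Foxp3 at 0.32 (limma adjusted p = 0.381 and 0.338).

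Treg genes were then set against general T cell genes on each array. Each gene was centred on its mean over the 31 arrays, and the mean of the 4 general T cell genes was taken from that of the 6 Treg genes. Since the members were chosen with these data known, the index is a description with no test. In C57 it was -0.02 (SD 0.256) in room air alone, -0.41 (SD 0.0303) with saline and -0.09 (SD 0.186) with LPS after air. The Treg mean itself was 0.04, 0.09 and 0.43 in these groups and the general T cell mean 0.06, 0.49 and 0.53. Of the 6 Treg genes Il2ra alone passed for LPS against saline in C57. With smoke and saline in C57 the index was -0.14 (SD 0.338), and with smoke and LPS -0.09 (SD 0.215). Each of these groups holds a doubted array. In AKR room air 6 wk, of the same set of arrays, it was -0.21 (SD 0.131).

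In AKR the index ran the other way from room air to saline. It was -0.30 (SD 0.151) in room air 3 wk, 0.37 (SD 0.193) with saline, 0.41 (SD 0.0754) with smoke and saline, 0.25 (SD 0.177) with LPS after air and 0.20 (SD 0.106) with smoke and LPS. The Treg mean was -0.33, -0.40, -0.41, 0.27 and -0.12, and the general T cell mean -0.03, -0.77, -0.82, 0.03 and -0.32. On AKR saline arrays the high index went with low general T cell genes, not with high Treg genes. Il2ra lay at percentiles 33.7 to 37.2 on the AKR air saline arrays, and Ctla4 at 24.2 to 31.4. Il2ra was already at 37 and 37.5 in AKR room air 3 wk, so a fall could be missed in these 2 genes. Cd8a also lay low with saline after air, at 37.3 to 43.9. LPS against saline differed by 0.31 in C57 after air, beyond the pooled SD of 0.133, and by -0.12 in AKR, within the pooled SD of 0.185. Without Il2ra the C57 difference was 0.12 and the AKR difference -0.31, and the SDs above are not those of that index. After smoke it differed by -0.21 in AKR, beyond the pooled SD of 0.0867, with both LPS arrays below all saline arrays, and by 0.05 in C57 (pooled SD 0.283), or 0.36 without both doubted arrays. Saline against room air alone differed by -0.39 in C57 and 0.67 in AKR, both beyond their pooled SDs of 0.182 and 0.180. With Foxp3, Ctla4 and Ikzf2 against Cd3e and Cd3g, the LPS difference after air was 0.17 in C57 and -0.66 in AKR, and the saline difference -0.58 and 1.00. In this smaller index Ctla4 did not pass the filter. Ikzf2 hardly followed Foxp3 across arrays (Pearson's r 0.07 in C57 and -0.01 in AKR).

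Gene by gene, Il2ra relative to the general T cell mean was higher with LPS than with saline by 1.30 in C57 and 0.83 in AKR, with no overlap, and no other Treg gene had that order in both strains. Foxp3 relative to that mean differed by 0.07 in C57 and by -0.31 in AKR, both overlapping. In AKR, Ikzf2 relative to it differed by -0.74 and Icos by -0.37, both with all LPS arrays below all saline arrays.

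**Figure D3:**
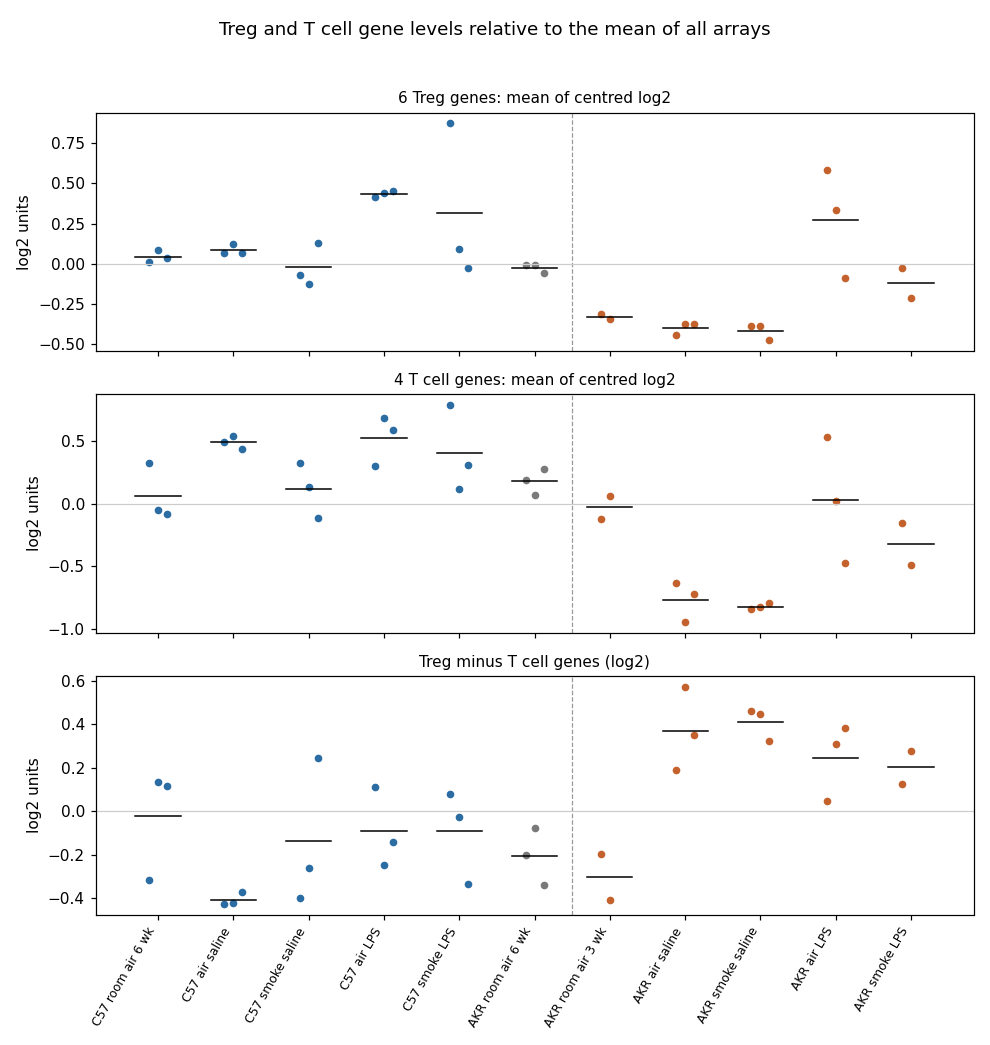
Mean of the 6 Treg genes, mean of the 4 general T cell genes and their difference, in log2 units after centring each gene over all arrays (vertical axes), for each array by group (horizontal axis); bars are group means and the dashed line separates the 2 sets of arrays. On the AKR saline arrays the general T cell mean is low, at -0.77 after air and -0.82 after smoke, and the difference is above 0.

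After smoke, LPS against saline was past the threshold for 3 of 9 members in AKR (31.5% of all genes passed, 16.9% higher and 14.6% lower). Il2ra read 6.17, 6.21 and 5.76 with smoke and saline and 7.38 and 6.97 with smoke and LPS, and rose by 1.12 ± 0.40 (limma adjusted p = 0.0365; n = 2 and 3). Cd3g read 6.73, 6.95 and 7.12, then 7.91 and 7.55, and rose by 0.79 ± 0.26 (limma adjusted p = 0.0206). Ikzf2 read 7.88, 7.91 and 7.88, then 7.30 and 7.25, and fell by 0.61 ± 0.15 (limma adjusted p = 0.00287). None of the 3 overlapped. Foxp3 read 6.52, 6.49 and 6.64, then 6.86 and 6.83, also with no overlap, and 0.29 ± 0.14 did not pass (limma adjusted p = 0.114).

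Of these calls Ikzf2 passed in all 15 alternatives run. Cd3g lost its call without AKR smoke saline 1 (0.69) or AKR smoke LPS 1 (0.62). Il2ra lost it without any 1 of AKR smoke saline 1, 2 or 3 (1.19, 1.21 and 0.98) or AKR smoke LPS 1 or 2 (0.92 and 1.33). In C57 0 of 9 members passed after smoke (0% of all genes; limma, 1 member and 1300 genes at an unadjusted p under 0.05). Il2ra read 6.67, 6.46 and 7.36 with smoke and saline and 8.94, 7.52 and 6.70 with smoke and LPS, the last value of each being a doubted array. Without both, Il2ra rose by 1.67 and Icos by 0.54, and Il2ra also rose without C57 smoke LPS 3 alone (1.40).

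Smoke itself called no member in either strain. With saline, 0 passed in C57 (0% of all genes; limma, 906 genes and 1 member at an unadjusted p under 0.05) and 0 in AKR (0.034%; limma, 944 genes and 0 members unadjusted). In C57 all smoke arrays lay below all air arrays for Cd3e, Cd3g, Cd4, Cd8a, Foxp3 and Ikzf2, with Cd3g at -0.56 ± 0.23 (limma adjusted p = 0.753). Those smoke arrays include the doubted C57 smoke saline 3. Without both doubted arrays Cd3g was at -0.47 ± 0.26 and 0 members passed, and the remaining 2 smoke arrays lay below all air arrays for every member except Il2ra. With LPS, 0 passed in C57 (0%; limma, 217 genes and 0 members unadjusted) and 0 in AKR (0.0068%; limma, 2342 genes and 3 members unadjusted). In AKR Foxp3 read 6.86 and 6.83 with smoke and LPS against 7.28, 7.20 and 7.10 with air and LPS, with no overlap, and -0.35 ± 0.14 did not pass (limma adjusted p = 0.243). Ikzf2, at -0.43 ± 0.15, and Icos, at -0.43 ± 0.17, stood alike (limma adjusted p = 0.198 and 0.247). The smoke by LPS interaction called 0 members in AKR (0%; limma, 992 genes and 1 member unadjusted) and in C57 (0%; limma, 1081 genes and 0 members unadjusted). This C57 interaction holds both doubted arrays. Smoke against air with LPS in C57 holds C57 smoke LPS 3, and neither is given without them.

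Between the strains in room air alone at 6 wk, the 1 strain comparison within a set of arrays, 0 of 9 members passed (2.69% of all genes; limma, 0 members at an unadjusted p under 0.05). Cd3e read 8.28, 8.56 and 8.38 in AKR and 8.53, 8.16 and 8.06 in C57, and Foxp3 6.70, 6.82 and 6.79 against 6.84, 6.88 and 6.43. Both overlap. Il2ra was lower on all AKR arrays, at 6.53, 6.51 and 6.47, than on all C57 arrays, at 6.68, 6.67 and 6.72. Of the general T cell genes Cd8a had that order too, at a difference of -0.21. Over all 10 members the differences spanned -0.21 to 0.34.

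The order of the groups was read within each set of arrays. In the larger set C57 air LPS had the highest Il2ra (mean 8.04, SD 0.278), followed by C57 smoke LPS (7.72, SD 1.13), whose mean was 8.23 (SD 1.00, n = 2) without the doubted array, and AKR room air 6 wk had the lowest (6.50, SD 0.0292). Neighbours in that order mostly lay closer than their SDs: of all 10 members, Il2ra between C57 room air and AKR room air 6 wk (a gap of 0.18) and Tnfrsf18 between C57 room air and C57 air saline (0.06) were further apart than both SDs. In the smaller set AKR air LPS had the highest Foxp3 (7.19, SD 0.0880), above AKR smoke LPS (6.84, SD 0.0215) by 0.35, more than both SDs. In that order Il2ra in AKR smoke LPS lay 1.12 above the next group, AKR smoke saline, and Cd3g in AKR smoke LPS lay 0.78 above AKR air saline. Both gaps exceeded both SDs, and the second has no test of its own. Cd8a, Tnfrsf18, Ikzf2, Icos and Ctla4 also had neighbours further apart than both SDs in the smaller set.

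**Figure D4:**
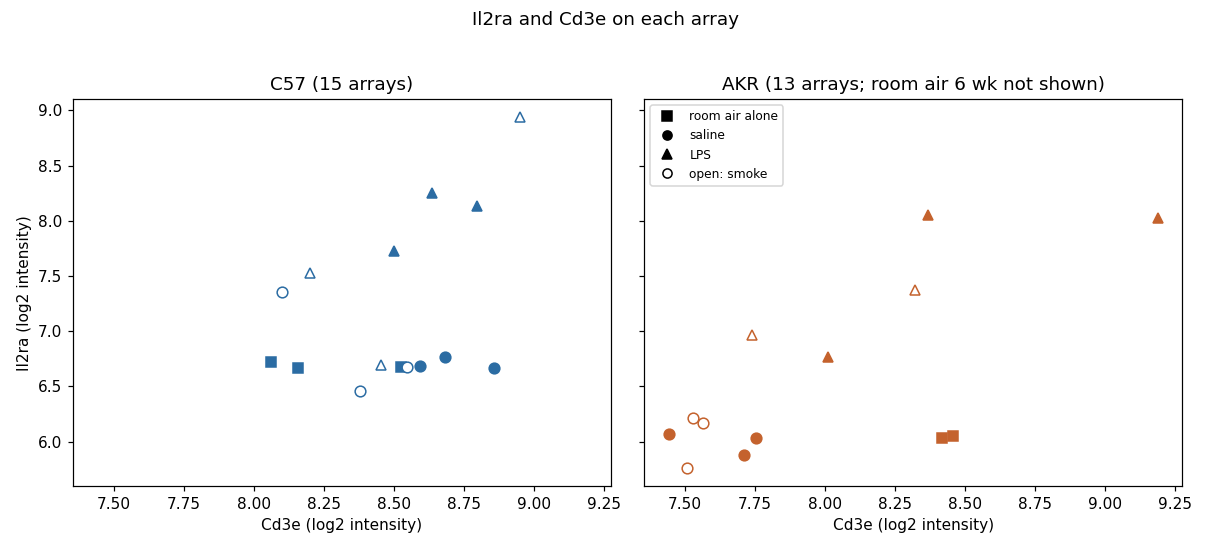
Log2 intensity of Il2ra (vertical axis) against Cd3e (horizontal axis) on 15 C57 arrays and 13 AKR arrays, with LPS as triangles, saline as circles, room air alone as squares and smoke as open symbols. AKR room air alone has Cd3e at 8.42 and 8.46 with Il2ra at 6.03 and 6.05, whereas AKR air LPS has Il2ra from 6.77 to 8.06.

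The genes most like Foxp3 and Cd3e were sought over all genes tested, by the lower of Pearson's r over the 15 C57 arrays and over the 13 AKR arrays of the smaller set. This describes likeness across arrays that share the LPS treatment, with no test. For Cd3e the 4 most alike genes were Cd3g (0.89), Cd8b1 (0.87), the other chain of CD8, Cd5 (0.84), a T cell surface receptor, and Lsp1 (0.84), a leukocyte protein. For Foxp3 they were A530032D15Rik (0.77), Pkib (0.75), a protein kinase A inhibitor, Fcho1 (0.73), of endocytosis, and Il27 (0.73), a cytokine subunit. Foxp3 and Cd3e correlated at 0.63 over the C57 arrays and 0.67 over the AKR arrays. Ikzf2 and Cd3e did so at 0.12 and -0.03, and Ikzf2 and Foxp3 at 0.07 and -0.01.

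Other genes of T cells were read from lists that hold no member. Over all genes tested, 11.5% rose with LPS after air in C57 and 9.45% in AKR. With saline against room air alone in AKR, 0.558% of all genes fell. Of 17 tested genes of the T cell receptor complex and its signalling, 9 rose with LPS after air in AKR (median 0.48), among them Lcp2, an adaptor also used by myeloid cells (2.73 ± 0.39), Cd28, the main costimulatory receptor (0.77 ± 0.13), and Cd5 (0.69 ± 0.13). In C57 2 rose and 2 fell (median -0.04), the latter Cd2, an adhesion receptor, at -0.83 and Grap2, an adaptor, at -0.75. Lcp2 also rose in C57. Its LPS response was larger in AKR by 1.30 ± 0.55, an interaction that did not pass (limma adjusted p = 0.345). Against room air alone, saline after air lowered 2 of the 17 in AKR (median -0.45), Cd28 by 0.82 ± 0.14 and the kinase gene Prkcq by 0.66. Of 8 naive T cell genes, 4 rose with LPS after air in AKR (median 0.54) and 2 fell in C57 (median -0.25). Saline after air lowered 2 of them in AKR (median -0.69), the homing receptor Ccr7 by 0.92 and the transcription factor Lef1 by 0.85. The strain by saline interaction was past the threshold and lower in AKR for 4 of 17 and 4 of 8 (medians -0.67 and -1.08), and for 1.17% of all genes. For the strain by LPS interaction after air, 4 of 17 and 3 of 8 passed, all higher in AKR (medians 0.54 and 0.93). Over all genes tested, 1.14% passed that interaction.

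Of 15 tested genes known from Tregs beyond the 6 members, 5 rose with LPS after air in C57 (median 0.35) and 8 in AKR (median 0.50). Over all genes tested, 11.5% and 9.45% rose there. Tnfrsf9, the costimulatory receptor 4-1BB, rose by 2.55 ± 0.58 and 3.06 ± 0.58, and Ebi3, a cytokine subunit, by 1.81 ± 0.47 and 1.67 ± 0.47. Il2rb, the receptor chain that pairs with Il2ra, rose by 1.86 ± 0.34 in AKR and was at 0.95 ± 0.34 in C57 (limma adjusted p = 0.0564). None of the 15 passed for saline against room air alone in either strain, where 0.0136% of all genes passed in C57 and 0.687% in AKR. Tnfrsf9, Ebi3 and Il2rb are also carried by activated T cells, myeloid cells or natural killer cells. A list of ligand genes, not all of them ligands of a member, had 4 tested genes. Among them Cd80 and Cd86, the ligands of CTLA-4, rose in C57 by 2.34 ± 0.51 and 1.11 ± 0.37 and in AKR by 2.36 ± 0.51 and 1.33 ± 0.37. Icosl, the ligand of ICOS, rose by 0.59 in AKR and was at 0.36 in C57 (limma adjusted p = 0.116). Il2 and Tnfsf18 did not pass the filter. Of 11 helper and effector genes, 3 rose in AKR and 3 in C57, where 2 fell. Ifng, the cytokine interferon gamma, rose by 4.13 ± 0.90 in AKR and 3.08 ± 0.90 in C57.

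Markers of other leukocytes moved in the same comparisons, and their part in the members' differences was not tested. Over all genes tested, 11.5% rose with LPS after air in C57 and 9.45% in AKR, and 0.558% fell with saline in AKR. Of 9 natural killer cell genes, 7 rose with LPS after air in AKR and 0 in C57, and 2 fell with saline against room air alone in AKR. Their centred mean spanned -1.57 to -1.20 on AKR air saline arrays, -0.66 to 0.14 with LPS and -0.77 to -0.43 in AKR room air 3 wk. In C57 it spanned 0.20 to 0.44 in room air alone, 0.71 to 0.94 with saline and 0.98 to 1.29 with LPS. Of 9 B cell genes, 8 fell with LPS after air in C57 and 1 rose in AKR, and 1 fell with saline in AKR. Their centred mean spanned 0.46 to 0.69, 1.16 to 1.42 and -0.25 to 0.20 in C57 room air, saline and LPS, and -0.24 to -0.01, -1.13 to -0.77 and -0.51 to 0.55 in the same order in AKR. Macrophage genes rose in 4 of 8 cases in each strain with LPS after air, and dendritic cell genes in 3 of 9 in C57 and 4 of 9 in AKR. The strain by LPS interaction after air passed, higher in AKR, for 9 of 9 B cell and 1 of 9 natural killer cell genes. It called 0 of 8 macrophage genes and 0 of 9 dendritic cell genes (1.14% of all genes). Log2 intensities have no true zero, so none of these markers can be called absent.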

How the data were processed

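Total RNA of lung was made into biotin-labelled cRNA and hybridised by the standard Affymetrix protocol, per the labels' protocols. The deposited values are log2 intensities of 35556 probe sets on 31 arrays, made with RMA, a method for background correction, normalization and probe summary, per the submitters' processing notes; version and settings are not given in the sources used here. Distribution medians were 6.96 to 7.10 on 18 arrays and 6.80 to 6.90 on 13.

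Names came from the platform annotation: 21789 had 1 symbol, 1621 several and 12146 none here. Symbols were updated by Entrez ID (99.6% matched). The probe set with the highest mean stood for a gene. Genes above an array's 40th percentile on at least 3 arrays were tested.

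A single limma fit of 11 group means (20 residual degrees of freedom, empirical Bayes, two-sided, Benjamini-Hochberg adjustment over 14705 genes) gave 18 comparisons; the threshold was an adjusted p of 0.05, and "rose" and "fell" are kept for genes that passed. Errors after ± are standard errors. The fit was tested on simulated data. The members and gene lists were chosen with earlier results of these data known. Named genes are all members, up to 3 passing genes a list with the largest change, and the 4 most like Foxp3 and Cd3e. Icosl, Il2 and Tnfsf18 among the ligands, and Cd5, Il2rb and Saa3 where they did not meet it, were named after their values were seen. Alternatives covered arrays left out, arrays of the groups compared alone, normalization, filters, probe choice, array weights, a trended robust prior and a replicate block.

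Replicate numbers come from the titles. Same-numbered arrays deviated together in all 3 pairs for saline against room air alone in C57 (correlations 0.225 to 0.409). There 0 members passed with the block, as without it. In AKR, with 2 pairs each, air LPS arrays deviated together with room air 3 wk arrays (0.444 and 0.541) and with smoke LPS arrays (0.440 and 0.540). Foxp3 and Il2ra were called in the former, and the block ended neither call. Correlations were positive in every pair, though some were small, between C57 smoke LPS and air LPS arrays (0.0267 to 0.549). The same held between AKR air saline and room air 3 wk arrays (0.0402 and 0.364). R 4.3.3, limma 3.58.1, statmod 1.5.0, data.table (1.17.8), Python 3.11.15 and matplotlib 3.10.9 were used.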

Additional observations from a re-analysis of the deposited data

Results flagged for a closer look

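Cd3g differed between the strains in its change from room air alone to saline after air. The interaction was -1.82 ± 0.34 log2 units (AKR minus C57; limma adjusted p = 0.0113), from a fall of 1.10 ± 0.26 in AKR and a difference of 0.71 ± 0.23 in C57 that did not pass. It is the 1 member whose difference between strains passed its own test. The AKR reference has 2 arrays, and the reference mice are titled 3 wk in AKR and 6 wk in C57. The AKR arrays also lie in the smaller set and the C57 arrays in the larger. Strain, titled exposure time and set of arrays therefore cannot be told apart in the interaction. Without AKR room air 3 wk 2 it was -1.58 and no longer passed. Groups of 2 or 3 arrays were not tested for single arrays that stand apart.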

How the results depend on the processing

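No member past the threshold changed sign in any alternative run. Without both doubted C57 arrays the count was 2 for LPS against saline after smoke in C57 (0 with them), 1 for the strain by LPS interaction (0) and 3 for the strain by saline interaction (1), and the Treg index of the first differed by 0.36. With the arrays of the groups compared alone it was 2 for air LPS over air saline in C57, 1 for LPS after air against room air alone in AKR, 0 for saline against room air alone in AKR and 3 for strain by saline. Quantile normalization gave 1 for strain by LPS and 2 for strain by saline; median centring, the stricter filter, the trended robust prior and the replicate block gave 2 for strain by saline. Without a filter, and with the replicate block, saline against room air alone in AKR had 0 (Cd3g limma adjusted p = 0.0661 with the block, between 0.0163 and 0.757 over its alternatives). The block also ended the call of Il2ra for LPS after smoke in AKR (1.05). Array weights, whose estimate stopped before its tolerance was met, gave 3 for LPS after air in C57, 1 after smoke in C57 and 6 after smoke in AKR, 8 and 4 for LPS against room air alone in C57 and AKR, 1 for saline against room air alone in C57, 1 and 5 for smoke with LPS in C57 and AKR, 1 for AKR against C57, 2 for strain by LPS, 4 for strain by LPS against room air alone, 3 for strain by saline and 1 for smoke by LPS in AKR. With Foxp3, Ctla4 and Ikzf2 against Cd3e and Cd3g, the index differed by 0.17 for LPS after air in C57, -0.66 in AKR and -0.61 after smoke in AKR, and by -0.58 and 1.00 for saline against room air alone in C57 and AKR. With Il2ra left out of the index, chosen after seeing the data, it differed by 0.12 for LPS after air in C57, -0.31 in AKR and -0.37 after smoke in AKR, and the difference after smoke in C57 was -0.07. With single arrays left out, counts ran from 0 to 1 for LPS after air in C57, 4 to 8 in AKR, 0 to 1 after smoke in C57, 1 to 2 after smoke in AKR, 1 to 3 and 0 to 4 for LPS against room air alone in C57 and AKR, 0 to 0 for saline in AKR, 0 to 2 for strain by LPS and 0 to 3 for strain by saline. The cause of these changes was not tested. Shares of all genes passing under each alternative are not given, so these counts do not set the members against other genes. Signal limits Ctla4, which lay near the dim end of the arrays, and Il2ra on AKR air saline and AKR room air 3 wk arrays, all below the 40th percentile.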
